A study of Mus musculus with 22 samples.

Results

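C3H 10T1/2 is a line of mouse mesenchymal cells with the capacity to become fat cells in culture. Its adipocyte differentiation was compared on day 4 between cells carrying wild-type DNMT3A (WT) and cells carrying DNMT3A with the paired substitutions W330R and R181E, called the double mutant below. The comparison takes 4 of the 22 RNA sequencing libraries of the series, 2 WT and 2 double mutant, chosen by genotype and day. The cells had received IBMX, dexamethasone, insulin and troglitazone for the first 2 days and insulin alone after that, in both genotypes. Day 2 and day 6 of both genotypes, and cells with W330R alone on day 4, serve as reference points. The sample labels name the second substitution R181E, whereas the columns of the count table name it R181A, and the label is used here. The labels say neither whether replicates were separate cultures nor how many clones a genotype stands for, so that every p-value measures the spread between these libraries, which may be technical.

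DNMT3A is a de novo DNA methyltransferase. Its PWWP domain, which holds W330, reads methylated histone H3 and steers the enzyme to gene bodies, and W330R weakens that reading and moves methylation towards CpG islands that Polycomb complexes mark. R181 lies in the N-terminal region that binds nucleosomes carrying ubiquitinated histone H2A. In a forming adipocyte, early factors such as C/EBP-beta bring on PPAR-gamma and C/EBP-alpha, and these turn on the genes for fatty acid uptake, triglyceride synthesis, lipid droplet coats and lipolysis. The day 4 comparison asks how this program stood in cells whose DNMT3A carries both substitutions.

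Total counts were 13314060 and 20106178 in the WT libraries and 15642443 and 22710246 in the double mutant libraries. The summed level of 8 adipocyte markers was 4517 and 6580 counts per 1000000 counts (CPM) in WT against 2735 and 3105 in the double mutant. These markers were thus expressed in all 4 libraries. The 8 mesenchymal fibroblast markers summed to 10810 and 8698 in WT and to 13800 and 10360 in the double mutant, but they did not move together. Vim and Fn1 were higher in both double mutant libraries, with Vim at 4671 and 4014 in WT against 7482 and 5244. Col1a1 and Col3a1 were lower in both, with Col1a1 at 673.8 and 758.0 against 408.6 and 449.8. The other fibroblast markers overlapped between genotypes. The muscle genes Myod1, Myog and Ckm, the endothelial gene Cdh5 and the epithelial gene Epcam had no count in any of them. The 4 cartilage markers summed to 1550 and 422.1 in WT and to 4727 and 1167 in the double mutant, higher in replicate 1 of each genotype. Most of each sum was Col2a1 and Sox9. The cartilage proteoglycan gene Acan went the other way, at 4.48 and 0.165 CPM in WT against 2.84 and 0.132. It had only 3 counts in replicate 2 of each genotype. In bulk RNA, fewer cells of a type cannot be told apart from less RNA in each cell, which holds for every group below. Here and throughout, the first value belongs to replicate 1 and the second to replicate 2.

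Dnmt3a itself was measured at 106.6 and 163.0 CPM in WT and at 69.5 and 122.2 in the double mutant, with log2 fold change -0.51 (SE 0.16). The ranges overlapped, each double mutant library lay below its same-numbered WT library, and the difference did not pass edgeR's quasi-likelihood test over the 18 libraries of days 2, 4 and 6 (adjusted p = 0.21). In the fit of the 4 compared libraries alone it did (-0.50, SE 0.10, adjusted p = 0.0276), and over all alternatives the adjusted p ran from 0.0276 to 0.815. The counts cannot tell mutated from unmutated Dnmt3a transcripts. Among its relatives, the maintenance enzyme Dnmt1 stood at 58.1 and 44.8 CPM in WT against 62.5 and 61.8 (log2 fold change 0.28, SE 0.20), and Dnmt3b at 6.98 and 5.05 against 7.15 and 5.76 (0.11, SE 0.23). Of 17 tested genes of DNA methylation and demethylation the fit of the 18 libraries called none, and the fit of the 4 libraries called 1 of 16 higher and 2 lower: Uhrf1 on the higher side and Dnmt3a and Tet2 on the lower. Over all 13049 genes of the latter fit, 5.89% were called higher and 7.74% lower, so these few calls are only a description of single genes. Tet2, which oxidises methylated cytosine, was at 28.4 and 18.7 CPM against 18.8 and 13.4, while Uhrf1, which brings DNMT1 to replicated DNA, was at 18.1 and 10.2 against 24.1 and 19.2. Of the 50-base sequences of Dnmt3b transcripts 9.81%, and of those of Uhrf1 15.4%, also occur in another gene, so these values are less certain.

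Of 14423 genes tested, 3 differed between the double mutant and WT at an adjusted p under 0.05 (0.0208%), all of them lower in the double mutant: Pfkfb3, Mcam and Etv3. The test was edgeR's quasi-likelihood test over the 18 libraries of days 2, 4 and 6 with the replicate number as a block, and 2130 genes (14.8%) had an unadjusted p under 0.05. The same fit without the block called none. The 4 libraries fitted on their own, with the block and 1 residual degree of freedom, gave 1778 called genes of 13049 (13.6%), 768 higher (5.89%) and 1010 lower (7.74%). DESeq2 over the 18 libraries gave 358 (2.7%), 129 higher (0.973%) and 229 lower (1.73%). The smallest adjusted p was 0.0489, shared by the 3 genes, so the size of the called set depended on the choice of libraries and test. Pfkfb3 ranged from -1.94 to -1.40 over all alternatives, Mcam from -1.16 to -0.93 and Etv3 from -0.97 to -0.82. Their adjusted p-values ranged from 1.51e-08 to 0.669 over the 3 genes and the alternatives, the highest without replicate 1 of the double mutant.

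Pfkfb3 makes the enzyme that forms fructose 2,6-bisphosphate, the strongest activator of glycolysis in many cells. It was read at 137.0 and 159.0 CPM in WT and at 35.1 and 59.4 in the double mutant, with no overlap, and fell by 1.67 on the log2 scale (SE 0.22, adjusted p = 0.0489). On day 2 it stood at 68.8 and 89.0 in WT against 38.3 and 51.6, and on day 6 at 48.6 and 55.7 against 17.8 and 27.7. The WT level was highest on day 4, and the change of the difference from day 2 to day 4 did not pass its test (-0.86, SE 0.31, adjusted p = 1). Mcam encodes a cell surface adhesion molecule of perivascular and mesenchymal cells. Its WT levels were 106.6 and 126.1 CPM against 44.2 and 69.5 in the double mutant, and it fell by 1.06 (SE 0.13). The difference for Mcam was -0.42 on day 2 (adjusted p = 0.34) and -1.65 on day 6 (adjusted p = 0.00113).

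Etv3 encodes an ETS-family repressor of transcription. It was at 54.2 and 56.0 CPM in WT and at 26.3 and 32.6 in the double mutant, and fell by 0.91 (SE 0.12). Unlike the other two it declined with time in WT, from 73.3 and 91.7 on day 2 to 34.5 and 40.3 on day 6, and the double mutant lay below WT on each day, at 42.7 and 49.1 on day 2 and at 21.0 and 25.5 on day 6. Under 2% of the transcript sequence of each of the 3 genes occurs in another gene (Etv3 1.44%, Pfkfb3 0.363%, Mcam 0%).

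W330R moves DNMT3A towards CpG islands, and therefore the 250 bases before the start of each called gene are shown, from RefSeq on GRCm38.p6, 5′ to 3′, with each CpG in capitals. The table holds 2 starts for Pfkfb3, of which the most upstream is shown, and 1 each for Mcam and Etv3. Counts came from a newer build, and DNA methylation was not measured in these libraries.
Pfkfb3 (chr2:11553930-11554179, minus strand, upstream of the gene): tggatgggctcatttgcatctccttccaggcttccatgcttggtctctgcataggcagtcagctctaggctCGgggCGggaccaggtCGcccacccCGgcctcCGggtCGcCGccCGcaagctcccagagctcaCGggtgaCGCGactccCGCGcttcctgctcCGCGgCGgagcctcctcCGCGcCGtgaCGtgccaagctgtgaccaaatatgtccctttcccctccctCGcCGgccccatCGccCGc
Mcam (chr9:44134408-44134657, plus strand, upstream of the gene): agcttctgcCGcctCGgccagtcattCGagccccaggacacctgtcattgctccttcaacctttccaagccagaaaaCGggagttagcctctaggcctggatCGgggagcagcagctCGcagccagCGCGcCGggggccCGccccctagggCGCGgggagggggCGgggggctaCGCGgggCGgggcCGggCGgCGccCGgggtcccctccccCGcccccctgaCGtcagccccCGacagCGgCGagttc
Etv3 (chr3:87525328-87525577, plus strand, upstream of the gene): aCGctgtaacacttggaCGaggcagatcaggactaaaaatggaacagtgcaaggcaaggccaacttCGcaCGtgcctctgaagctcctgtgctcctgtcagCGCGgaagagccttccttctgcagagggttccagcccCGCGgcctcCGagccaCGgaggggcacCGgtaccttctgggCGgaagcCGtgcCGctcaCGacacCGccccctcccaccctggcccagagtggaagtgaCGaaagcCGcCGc

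These windows hold 24, 25 and 19 CpGs, in the order printed. Over the full 300-base promoter windows, which end 50 bases past the start, the ratio of observed to expected CpGs was 0.851 for Pfkfb3, 0.733 for Mcam and 0.741 for Etv3, and the median over the 10185 tested genes with a promoter in the table was 0.75. A ratio above 0.6, a common mark of a CpG-rich start, was met by 69.4% of those 10185 promoters. Since only 70.6% of the tested genes had a promoter in the table, a test of CpG content between sets of genes would be void and none was made, and the values of the 3 genes stand as a description.

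**Figure D1:**
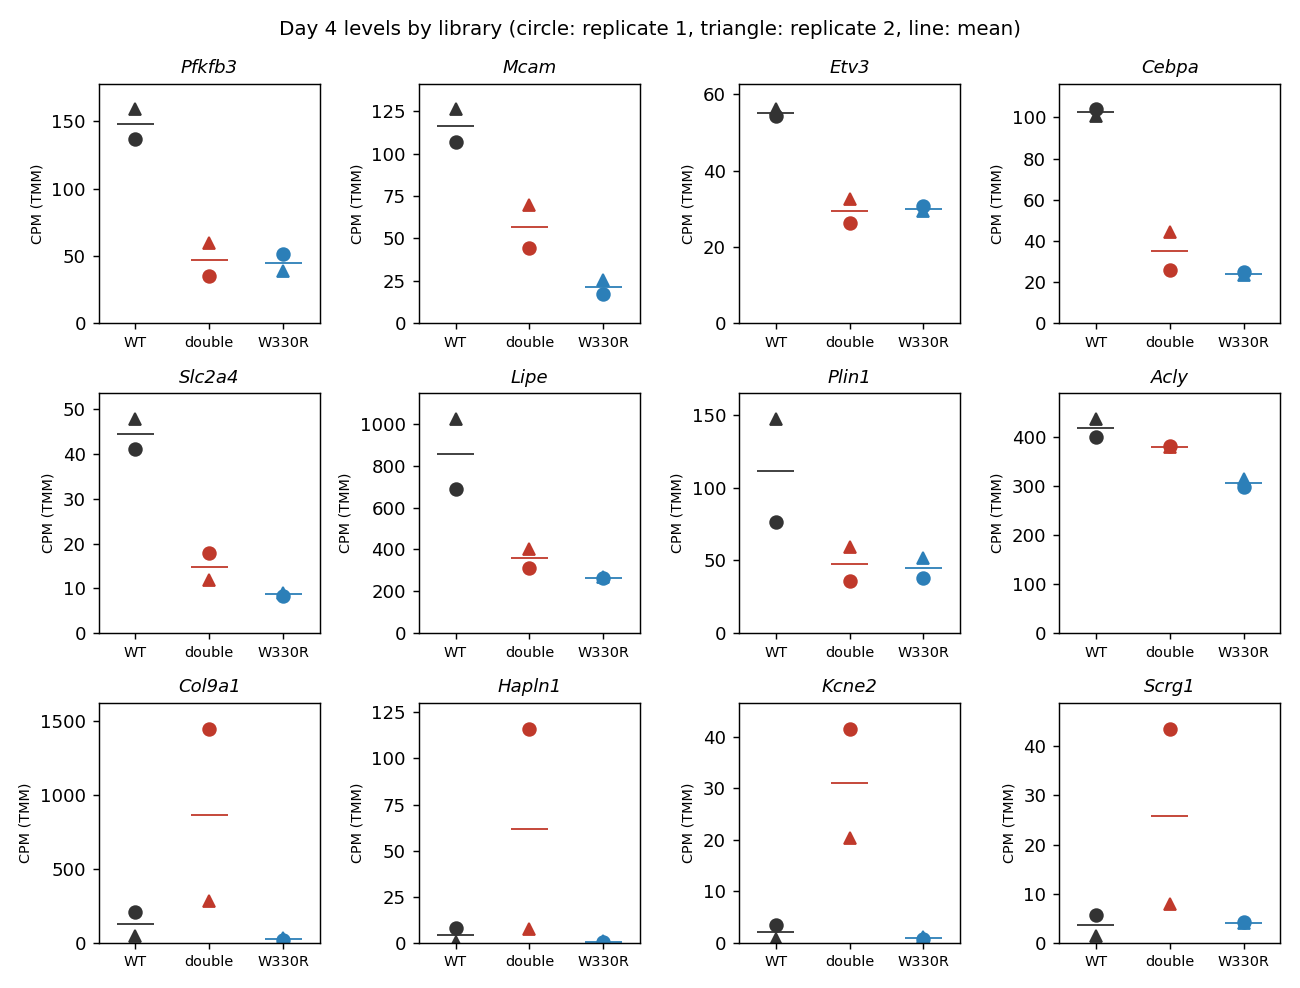
Day 4 level of 12 genes in each library, in CPM on linear axes that start at 0, for WT, the double mutant and W330R. Pfkfb3, Mcam and Etv3 lie lower in both double mutant libraries than in both WT libraries, and the cartilage genes Col9a1 and Hapln1 are much higher in replicate 1 than in replicate 2 of the double mutant.

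The differences of the 2 same-numbered pairs of libraries were alike beyond the called genes. Across the 11311 genes whose log2 CPM averaged 1 or more, the pair differences had r = 0.602 and 73.2% had the same sign in both, given as a description because the genes are not independent. Both double mutant libraries lay below both WT libraries for 19.8% of all tested genes and above them for 19.6%, and the gene groups below are read against these shares. The median log2 fold change over all genes was -0.01. No gene of any list below was called in the fit of the 18 libraries, so the groups are described by their levels, their medians and the calls in the fit of the 4 libraries. That fit called 5.89% of all its genes higher and 7.74% lower, and the calls in each list are read against these shares.

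**Figure D2:**
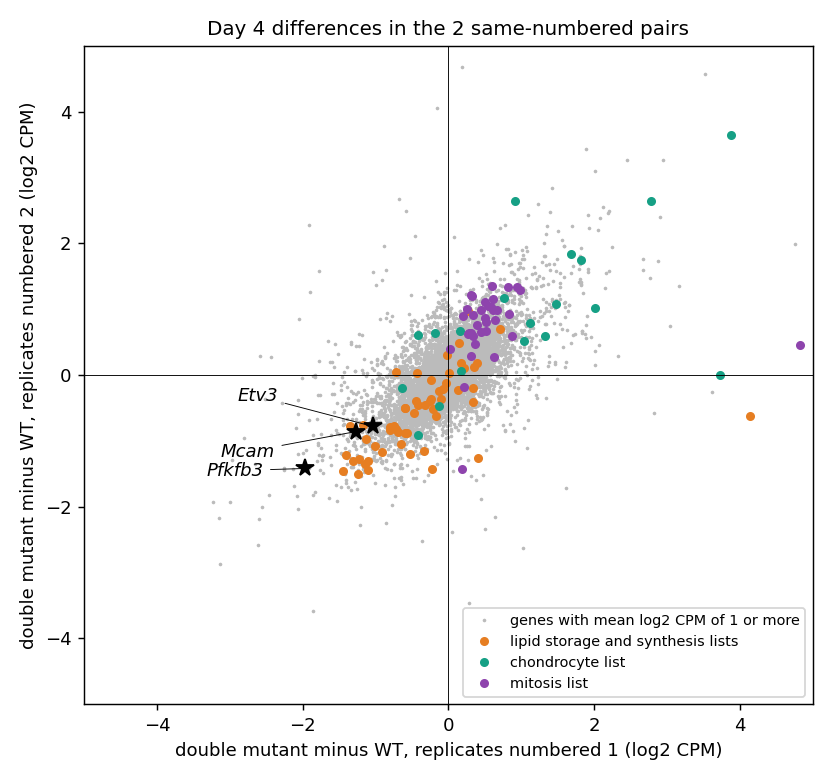
Difference of log2 CPM between the double mutant and WT on day 4 in replicates 1 (horizontal) and replicates 2 (vertical), 1 point per gene for 11311 genes, of which 9 fall outside the axes. The lipid storage and synthesis genes lie mostly in the lower left, where both pairs are lower in the double mutant, and most mitosis genes in the upper right.

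Among 19 adipogenic transcription factors the median log2 fold change was -0.42. In 6 of them both double mutant libraries lay below both WT libraries and in 4 above, and the fit of the 4 libraries called 7 lower and 2 higher of 18 tested. Cebpa, which encodes the factor that maintains the mature adipocyte program, was at 103.9 and 100.9 CPM in WT and at 26.0 and 44.4 in the double mutant (log2 fold change -1.57, SE 0.29, adjusted p = 0.0994). The double mutant libraries thus held less than WT by a wide gap, yet the gene missed the threshold among all genes. It was called in the fit of the 4 libraries and by DESeq2, as were Lipe, Cidec, Acsl1 and Slc2a4. Nr1h3, the sterol-sensing receptor LXR-alpha, was at 19.5 and 22.7 CPM against 9.62 and 9.32 (-1.15, SE 0.29), and Cebpb at 238.6 and 400.2 against 157.3 and 205.0. Zfp467, a zinc finger factor that favours the fat fate, was scarce and lower still in the double mutant, at 1.91 and 2.20 CPM against 0.493 and 0.352.

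Pparg, the master regulator of the fat cell, separated the genotypes far less than Cebpa. It was at 49.2 and 83.1 CPM in WT and at 43.4 and 53.9 in the double mutant (-0.42, SE 0.23, adjusted p = 0.412), with overlapping ranges. Srebf1, which drives lipogenic genes, was at 260.8 and 300.2 CPM against 237.1 and 281.5. The Krüppel-like factors Klf4 and Klf5, which like Cebpb act early in the program, lay higher in both double mutant libraries. Klf5 was at 10.2 and 5.55 CPM in WT against 18.7 and 16.6 (1.22, SE 0.30, adjusted p = 0.146), and Klf4 at 17.9 and 16.2 against 28.5 and 22.8. The early factors thus stood on both sides of WT in these libraries.

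Genes of the lipid droplet and of lipolysis had the lowest median of all lists, -0.74 over 18 tested genes, with 7 below WT in both libraries and 2 above, and the fit of the 4 libraries called 8 lower and none higher. Lipe, hormone-sensitive lipase, was at 691.9 and 1024 CPM in WT against 312.4 and 402.1 (-1.26, SE 0.32, adjusted p = 0.152). The droplet coat gene Plin1 was at 76.4 and 147.2 against 35.6 and 59.3 (-1.23, SE 0.45, adjusted p = 0.261), and Cidec, which fuses droplets, at 1018 and 1333 against 543.1 and 594.8 (-1.04, SE 0.20, adjusted p = 0.101). Pnpla2, which starts lipolysis, was at 1483 and 2159 against 679.6 and 1096. Both libraries of the double mutant were below both WT libraries for these 4 genes. The coat genes Plin2 and Plin4 overlapped between genotypes, at 727.2 and 1728 against 542.5 and 1266 for Plin2, and G0s2, which encodes an inhibitor of the Pnpla2 lipase, was instead higher, at 58.4 and 33.1 CPM against 70.7 and 64.9.

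Fatty acid uptake and triglyceride synthesis showed the same side, with a median of -0.70 over 21 tested genes, 10 below WT in both libraries and none above, and 9 lower calls of 20 genes in the fit of the 4 libraries. Acsl1, which activates fatty acids, was at 3037 and 3982 CPM in WT and at 1113 and 1443 in the double mutant (-1.46, SE 0.28, adjusted p = 0.102). Agpat2, an acyltransferase whose loss causes lipodystrophy, was at 936.7 and 1792 against 377.2 and 724.9 (-1.31, SE 0.32, adjusted p = 0.146), and Dgat1, which makes the last step to triglyceride, at 236.4 and 375.4 against 117.4 and 177.0. Fabp4, the fatty acid carrier of adipocytes, was at 1997 and 3323 against 1271 and 1602 (-0.86, SE 0.43, adjusted p = 0.386). Cd36, a fatty acid receptor, was low in all libraries, at 15.1 and 10.1 against 6.35 and 3.52 (-1.37, SE 0.61). Lpl, which frees fatty acids from lipoproteins, overlapped between genotypes, at 1062 and 610.2 against 944.1 and 397.6 (-0.36, SE 0.51).

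De novo lipogenesis had a median of -0.35 over 16 tested genes, of which 10 lay below WT in both libraries and 1 above, with 6 lower calls and none higher in the fit of the 4 libraries. The desaturase gene Scd1 was at 4024 and 5709 CPM against 1727 and 2348 (-1.25, SE 0.33, adjusted p = 0.159), and Thrsp at 24.3 and 24.1 against 11.2 and 8.79. Smaller gaps were seen at Fasn, fatty acid synthase, with 468.6 and 464.2 against 309.4 and 328.0, and at Acly, which makes cytosolic acetyl-CoA, with 400.2 and 435.7 against 380.3 and 378.1. The cholesterol and SREBP2 genes had a median of -0.37, with 14 of 25 below WT in both libraries and 2 above. Cyp51, a sterol demethylase, was at 414.6 and 639.2 against 174.8 and 223.4 (-1.40, SE 0.35), and Hmgcs1, an early enzyme of the pathway, at 431.4 and 582.6 against 278.9 and 292.4.

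Mitochondrial genes lay almost all on one side. In fatty acid oxidation and the TCA cycle the median was -0.60, 31 of 41 genes (75.6%) lay below WT in both libraries and none above, and the fit of the 4 libraries called 31 of 40 lower and none higher. The carnitine carrier Slc25a20 was at 37.3 and 49.8 CPM against 24.4 and 27.3 (-0.75, SE 0.15, adjusted p = 0.103), and Cpt2, which takes fatty acids into oxidation, at 161.8 and 176.6 against 108.4 and 125.8 (-0.53, SE 0.11, adjusted p = 0.111). Ogdh of the TCA cycle was at 321.8 and 385.1 against 210.3 and 256.4. These 3 genes were chosen after their values were seen, as were those named from other lists of more than 25 genes. Among 50 respiratory chain subunits the median was -0.50, 49 had a negative fold change, 17 lay below WT in both libraries and none above, and the fit of the 4 libraries called 37 lower. The thermogenic list was more mixed, with a median of -0.45 over 12 tested genes, 5 below WT in both libraries and 3 above. Its median was -0.16 in replicates 1 and -0.67 in replicates 2, and the fit of the 4 libraries called 3 of 10 lower and none higher. On its lower side the coactivator gene Ppargc1b was at 33.0 and 50.5 CPM against 11.9 and 21.9, and Slc36a2, an amino acid transporter of brown fat, at 12.7 and 23.2 against 1.36 and 5.05 (-2.58, SE 0.46, adjusted p = 0.0994).

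Insulin signalling and glucose uptake, the pathway of the hormone left in the medium on day 4, had a median of -0.33 over 17 tested genes, with 8 below WT in both libraries and 4 above, and 6 lower and 2 higher calls in the fit of the 4 libraries. Slc2a4, the insulin-responsive glucose transporter GLUT4, was at 41.2 and 47.8 CPM in WT and at 17.8 and 11.8 in the double mutant (-1.60, SE 0.27, adjusted p = 0.0994). Hk2, which traps glucose in the cell, was at 147.6 and 254.1 against 81.6 and 103.8 (-1.09, SE 0.30, adjusted p = 0.17), and the receptor gene Insr at 146.8 and 153.2 against 105.0 and 108.8. On the other side lay Grb10, an imprinted inhibitor of the receptor, at 451.9 and 253.0 against 888.3 and 534.8 (1.02, SE 0.25, adjusted p = 0.138), and the basal glucose transporter Slc2a1, at 150.9 and 85.3 against 243.2 and 166.1. With Pfkfb3 and Hk2 lower and Slc2a1 higher, genes of glucose handling stood on both sides of WT.

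Secreted adipocyte proteins had a median of -0.63 over 18 tested genes, but in only 2 were both double mutant libraries below both WT libraries and in 1 above, since their levels differed widely between replicates. Lcn2 was at 44.8 and 478.5 CPM in WT and at 10.5 and 133.4 in the double mutant, Agt at 346.8 and 1433 against 208.3 and 399.1, and Hp at 240.2 and 924.7 against 156.0 and 294.7. For each of them the same-numbered pair was lower in the double mutant, and the fit of the 4 libraries called 11 of the 18 lower and 1 higher. Adipoq, adiponectin, was at 394.1 and 462.8 against 309.6 and 251.9 (-0.58, SE 0.30, adjusted p = 0.397). Cfd, adipsin, hardly differed, at 187.2 and 106.8 against 194.6 and 95.9 (-0.02, SE 0.49). Angptl4, an inhibitor of lipoprotein lipase, was the exception on the higher side, at 16.8 and 8.95 CPM against 38.4 and 26.3 (1.35, SE 0.25, adjusted p = 0.0994). Angptl4 is also in the list of glucocorticoid-induced genes, whose other members leaned lower. That list had a median of -0.56 over 20 genes, and the fit of the 4 libraries called 12 lower and 1 higher. Fkbp5 was at 576.4 and 1374 against 241.6 and 594.6, and Sgk1 at 165.8 and 372.1 against 78.3 and 176.0, again higher in replicate 2 of each genotype.

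**Figure D3:**
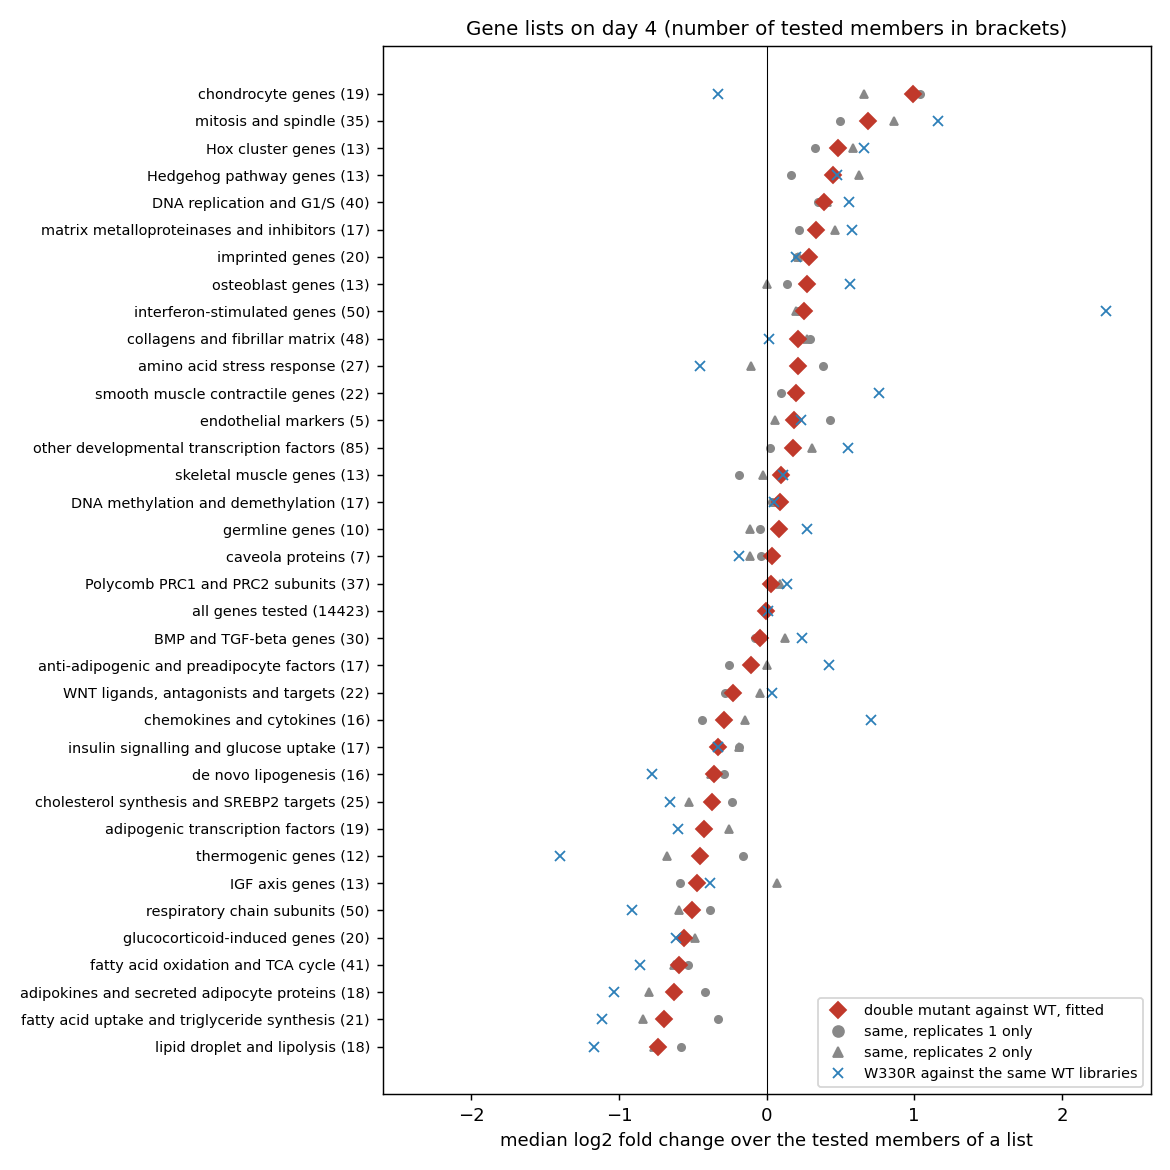
Median log2 fold change on day 4 over the tested members of each list, for the double mutant against WT (fitted, and in each same-numbered pair) and for W330R against the same WT libraries. Fat cell and mitochondrial lists lie on the left for both, down to -0.74 in the double mutant, and the chondrocyte list lies at 0.99 in the double mutant and at -0.33 in W330R.

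Genes of cartilage had the highest median of all lists of 5 or more tested genes, 0.99 over 19, and the fit of the 4 libraries called 11 of 17 higher and 1 lower. Here the replicates differed as much as the genotypes. Col2a1, the main cartilage collagen, was at 1112 and 197.8 CPM in WT and at 3939 and 662.2 in the double mutant (1.79, SE 1.00, adjusted p = 0.427), so replicate 1 of WT lay above replicate 2 of the double mutant. Col9a1, of collagen IX, did not overlap, at 208.8 and 45.7 against 1443 and 285.4 (2.73, SE 1.16, adjusted p = 0.309). Hapln1, a link protein of cartilage matrix, was at 7.79 and 0.494 against 116.0 and 7.25 (3.75, SE 0.88, adjusted p = 0.13). Comp, a cartilage matrix protein, was at 18.6 and 12.4 against 51.8 and 26.2, and Sox9, the factor that sets the cartilage fate, at 413.0 and 219.0 against 703.0 and 494.7. In 5 of the 19 genes both double mutant libraries lay above both WT libraries (26.3%, with 19.6% over all genes) and in none below. Prg4, the lubricant of joint surfaces, was lower within each pair, at 10.1 and 28.6 against 7.59 and 15.3.

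Collagens and fibrillar matrix genes went both ways, with a median of 0.21 over 48 genes and 16 higher and 8 lower calls in the fit of the 4 libraries. Efemp1, a fibulin, came closest to the threshold among members of any list, at 2.57 and 1.48 CPM in WT against 0.493 and 0.264 (-2.42, SE 0.34, adjusted p = 0.0554). Col12a1 was at 263.6 and 302.2 against 136.7 and 169.2, and the basement membrane collagen Col4a1 at 2201 and 3930 against 1320 and 2097. The proteoglycan gene Dcn was on the higher side, at 8.16 and 3.13 against 38.0 and 9.58. Smooth muscle contractile genes had a median of 0.20 over 22, with 7 above WT in both libraries (31.8%) and 3 below (13.6%). Acta2 overlapped, at 248.6 and 131.8 against 545.4 and 235.9. Osteoblast genes had a median of 0.27 over 13, with 3 below WT in both libraries (23.1%, near the 19.8% over all genes) and none above. The bone matrix gene Spp1 was one of these, at 19.99 and 20.2 against 7.28 and 11.96, though 11.6% of its transcript sequence also occurs in another gene.

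Cell division genes lay on the higher side. The median was 0.69 over 35 genes of mitosis and the spindle, of which 13 (37.1%) lay above WT in both libraries and none below, and 0.39 over 40 genes of DNA replication, of which 24 (60%) lay above and 2 below. The fit of the 4 libraries called 10 of the first and 9 of the second list higher and none lower. Cdk1, the mitotic kinase, was at 29.7 and 18.9 CPM in WT against 52.7 and 36.0 (0.88, SE 0.28, adjusted p = 0.222), and Cdc20, an activator of the anaphase-promoting complex, at 13.4 and 5.99 against 26.0 and 15.3 (1.15, SE 0.39, adjusted p = 0.231).

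Developmental regulators, many of which are Polycomb targets in undifferentiated cells, had medians on the higher side. The fit of the 4 libraries called 1 of 11 Hox genes higher and none lower. Of 79 other developmental transcription factors it called 8 higher and 3 lower. Of 39 Hox genes 13 were tested, with a median of 0.48, and 2 lay above and 2 below WT in both libraries. Hoxa3 was at 36.2 and 15.7 CPM against 54.1 and 31.6. Of 149 other developmental transcription factors 85 were tested, with a median of 0.18, and 17 (20%) lay above and 10 (11.8%) below WT, the first share near that of all genes. The median of these 85 was 0.02 in replicates 1 and 0.30 in replicates 2, so their lean came mostly from replicates 2. Osr1, a mesenchymal regulator, was at 75.3 and 33.5 against 117.4 and 65.6 (0.79, SE 0.22, adjusted p = 0.178), and Gata4 at 19.03 and 13.4 against 28.4 and 25.1. Subunits of the Polycomb complexes themselves had a median of 0.03 over 37 genes. Imprinted genes had a median of 0.29 over 20 and germline genes 0.08 over 10. In the Hedgehog list, with a median of 0.45 over 13 tested genes, the receptor and target Ptch1 was at 52.2 and 34.8 against 149.4 and 80.8 (1.39, SE 0.39, adjusted p = 0.178).

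The remaining lists are given by their medians. These were -0.11 for anti-adipogenic and preadipocyte factors (17 genes), 0.34 for matrix metalloproteinases and their inhibitors (17), 0.25 for interferon-stimulated genes (50), -0.29 for chemokines and cytokines (16), -0.23 for WNT genes (22), -0.05 for BMP and TGF-beta genes (30), 0.21 for the amino acid stress response (27), 0.04 for caveola proteins (7), 0.10 for skeletal muscle genes (13) and -0.47 for the IGF axis (13). Both double mutant libraries lay above both WT libraries in 5 of the 17 metalloproteinase genes (29.4%) and below in none, in 16 of the 50 interferon-stimulated genes (32%) and below in 6, and in 10 of the 27 genes of the amino acid stress response (37%) and below in 2. The fit of the 4 libraries called 8 of 25 stress response genes higher and 3 lower, 3 of 38 interferon-stimulated genes higher and 1 lower, and 2 of 16 metalloproteinase genes higher and 1 lower. For some lists the median differed in sign between the same-numbered pairs. Among them, in replicates 1 and 2, it was 0.38 and -0.10 for the stress response, -0.59 and 0.07 for the IGF axis, and -0.08 and 0.13 for BMP and TGF-beta genes. In the IGF axis, Igfbp5, a binding protein, was at 4.41 and 2.75 CPM in WT against 0.925 and 0.967.

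The genes with the widest gaps in the fit of the 4 libraries, a choice made after the values were seen, included several of low level. Kcne2, a potassium channel subunit, was at 3.53 and 0.769 CPM in WT and at 41.6 and 20.4 in the double mutant (4.01, SE 0.69, adjusted p = 0.0994 over the 18 libraries), and it lay as far apart on day 2, at 2.83 and 0.249 against 28.7 and 8.48. Scrg1, a gene of chondrogenic cells, was at 5.73 and 1.43 against 43.5 and 7.91. On the lower side, Fibcd1, a chitin-binding membrane protein, was at 21.8 and 6.37 against 2.41 and 0.791.

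Whether the difference between double mutant and WT itself changed with time was tested as an interaction in the same fit. No gene was called for the change from day 2 to day 4 (0%, with 402 genes or 2.79% at an unadjusted p under 0.05, and 2 called by DESeq2) or from day 4 to day 6 (0%, with 252 or 1.75% at an unadjusted p under 0.05, and 4 called by DESeq2). On their own days, the double mutant and WT differed in no gene on day 2 (0%, with 1469 or 10.2% at an unadjusted p under 0.05) and in 212 on day 6 (1.47%), 33 higher (0.229%) and 179 lower (1.24%). The fat cell lists were closer to WT on day 2 and farther on day 6, as medians: lipid droplet and lipolysis at -0.12, -0.74 and -1.01 on days 2, 4 and 6, fatty acid uptake and triglyceride synthesis at -0.12, -0.70 and -1.06, and fatty acid oxidation and the TCA cycle at -0.12, -0.60 and -0.76. Mitosis genes ran the other way, at 0.86, 0.69 and 0.49, but on day 2 the replicates disagreed in size or side for genes looked at singly. Cdc20 was then at 4.13 and 2.39 CPM in WT against 14.5 and 3.07 in the double mutant. Ccnb1 was at 4.59 and 3.14 against 13.7 and 1.83, and so higher in replicate 1 and lower in replicate 2. Whether the day 2 median of the mitosis list holds in replicate 2 was not tested. The fold change of Cebpa was -1.17 on day 2 (adjusted p = 0.214) and -1.96 on day 6 (adjusted p = 0.0158). Slc2a4 was barely expressed on day 2 in both genotypes, at 4.28 and 4.69 against 4.41 and 2.18. No single gene passed the test of the change between days, and the change of a list's median was not tested.

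**Figure D4:**
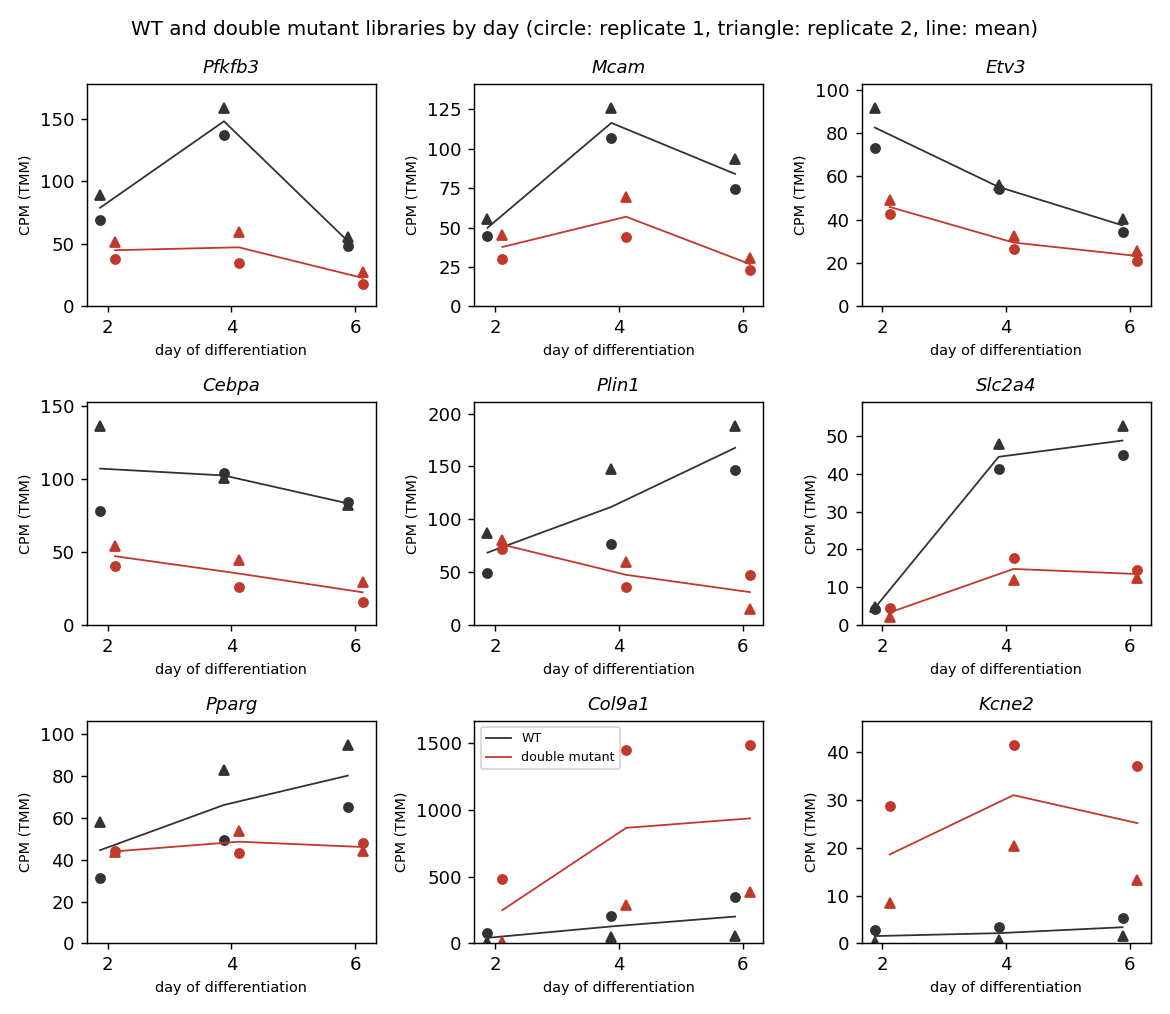
CPM of 9 genes by day of differentiation in WT and double mutant libraries, with lines through the means of the 2 libraries. Pfkfb3 and Mcam are highest on day 4 in WT, Cebpa is lower in the double mutant on each day, and Plin1 and Slc2a4 are close on day 2 and apart on days 4 and 6.

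The series also holds W330R alone on day 4, which shows what the second substitution was added to. Compared directly, the double mutant and W330R differed in 433 genes (3%), 147 higher (1.02%) and 286 lower (1.98%) in the double mutant; 68 were called without the replicate block, and 6 to 111 when 1 of the 4 libraries was left out, the fewest without replicate 1 of the double mutant. Mcam was among them, at 17.1 and 25.2 CPM in W330R against 44.2 and 69.5 (1.42, SE 0.14, adjusted p = 0.000938), and so the double mutant lay between W330R and WT. Pfkfb3 and Etv3 did not pass this test (0.03, SE 0.22, and -0.03, SE 0.12), with W330R at 51.1 and 38.9 and at 30.7 and 29.3. Among called genes whose log2 CPM averaged at least 1 over these 4 libraries, the widest differences on the higher side were Colgalt2, with 42.9 and 4.75 CPM in the double mutant and 0.256 and 0.372 in W330R, Hapln1, with 0.577 and 0.782 in W330R, and Kcne2, with 0.833 and 1.19. On the lower side they were Trim30a and Sp100, both interferon-stimulated, and Npy1r, a neuropeptide Y receptor. Trim30a was at 64.6 and 18.5 in W330R against 0.308 and 1.05, and 1.18 and 1.10 in WT.

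Set against the same WT libraries, which the values of both mutants therefore share, W330R gave 1536 called genes (10.6%), where the double mutant gave 3. Of the 1536, 636 were higher (4.41%) and 900 lower (6.24%). At an unadjusted p under 0.05 in the same test the gap was narrower, with 3857 genes (26.7%) in W330R and 2130 (14.8%) in the double mutant. The median log2 fold changes stood side by side as follows. Lipid droplet and lipolysis was at -1.17 in W330R and -0.74 in the double mutant, fatty acid oxidation and the TCA cycle at -0.86 and -0.60, respiratory chain subunits at -0.91 and -0.50, and mitosis at 1.16 and 0.69. Interferon-stimulated genes were at 2.30 and 0.25. In the direct test of the double mutant against W330R, 7 of their 50 tested members were lower and none higher. On day 6 their median in the double mutant against WT was 2.08, with 3 higher calls, and replicate 1 of the double mutant stood apart. There Ifit1 was at 309.4 and 6.38 CPM in the double mutant against 2.24 and 2.14 in WT. On day 4, replicate 1 of W330R stood apart in these genes. The summed level of the 50 was 3081 CPM in replicate 1 of W330R and 1045 in replicate 2, against 778.9 and 825.6 in the double mutant and 807.1 and 892.7 in WT. Without that library none of the 50 was called between the double mutant and W330R and the median difference was -1.44 in place of -2.38. The median of W330R against WT was then 1.68, with 1 higher call in place of 19. The 1536 calls of W330R against WT became 449 without replicate 1 of W330R and 110 without replicate 2. Cebpa was at 24.8 and 23.3 CPM in W330R, and the direct difference was 0.52 (SE 0.29, adjusted p = 0.409). For Pparg, at 33.5 and 41.9 in W330R, it was 0.37 (adjusted p = 0.478), and for G0s2, at 21.9 and 17.8, it passed, at 1.78 (adjusted p = 0.00724).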

How the data were processed

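The deposited table holds 1 column of whole-number counts per library, 22 in all, for 30170 gene symbols. The submitters' notes name kallisto, DESeq2 1.40 and GRCm39 without their roles; how the authors made the counts, and whether strand was used, is not given in the sources used here. From those counts edgeR (filterByExpr with a count minimum of 10 and a total of 15, TMM scaling, quasi-likelihood test, Benjamini-Hochberg adjustment, threshold 0.05) fitted the 18 libraries of days 2, 4 and 6 with 9 condition means and the replicate number as a block (8 residual degrees of freedom). CPM are on TMM-scaled library sizes and follow read number, not length, so levels are compared within a gene. Alternatives were the fit without the block, the 4, 6 or 22 libraries, DESeq2, RLE scaling, no filter and each library left out; 3 more were added after seeing the data. Scripts were tested on simulated data. Genes named were Dnmt1, Dnmt3a, Dnmt3b, 10 fat cell genes, up to 12 called genes per direction, 3 per direction for the other contrasts (both averaging 1 or more in log2 CPM over the libraries compared), and members of lists by role. Members, lists and this rule were chosen with earlier results of these data known. Promoter and transcript sequences came from RefSeq and GENCODE on GRCm38.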

Additional observations from a re-analysis of the deposited data

Results flagged for a closer look

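The difference between 2 mutant genotypes met a test of its own: the double mutant and W330R, each also set against the same day 4 WT libraries, differed in 433 genes on day 4, 147 higher and 286 lower in the double mutant. Without replicate 1 of the double mutant the count was 6.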

How the results depend on the processing

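The 3 genes called between the double mutant and WT on day 4 held with all 22 libraries and with RLE scaling. The count was 0 without the replicate block, with a block within each day, with the 6 libraries of day 4 and with days 2 and 4 only, 1 without the filter, and 0 to 1 when 1 library was left out; none was called without replicate 2 of WT or without either double mutant library. It was 1778 in the 4 libraries alone, 358 in DESeq2 and 284 with WT and the double mutant only, the last fit and that of days 2 and 4 being added after seeing the data. The cause of these changes was not tested. The 433 genes called between the double mutant and W330R on day 4 became 68 without the replicate block, 107 with the 6 libraries of day 4, 966 in DESeq2, and 6 to 111 when 1 library was left out (6 without double mutant replicate 1, 110 without replicate 2, 48 without W330R replicate 1, 111 without replicate 2). For the change from day 2 to day 4 DESeq2 called 2, and for that from day 4 to day 6 it called 4 and leaving out 1 library 0 to 1 (1 without double mutant replicate 1 of day 6). Same-numbered libraries deviated together for the 4 libraries compared (r = 0.424 across genes), but over 36 pairs of conditions r ran from -0.02 to 0.529, so the numbers are not shown to pair all libraries.

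Single genes turned sign in some fits. For the log2 fold change of Dnmt3b, double mutant against WT on day 4, the values without 1 library ran from -0.031 (WT replicate 2 left out) to 0.27. For the log2 fold change of Lpl, double mutant against WT on day 4, they ran from -0.80 to 0.035 (double mutant replicate 2 left out). For the log2 fold change of Cfd, double mutant against WT on day 4, they ran from -0.66 to 0.49 (WT replicate 1 left out), with 0.47 without double mutant replicate 2, 0.020 without the filter and 0.0064 with days 2 and 4 only. None of these genes was called in any of these fits. With 2 libraries per genotype, genes that vary between replicates, such as the cartilage and acute-phase genes, had wide errors. Several cartilage genes also had few reads in replicate 2, although the replicate 2 libraries were the deeper ones. Total counts were 20106178 against 13314060 in WT and 22710246 against 15642443 in the double mutant. How far low counts limited these genes was not tested.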
